A study of Mus musculus with 6 samples.

Results

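The Kruppel-like factors (Klf genes) were followed in mouse liver 1 day after the bile duct was tied off. All 9 listed members were on the array (Klf1, Klf2, Klf3, Klf4, Klf5, Klf6, Klf9, Klf10 and Klf13), found by their symbols among 8251 singly named genes, and 14 probe sets of 12422 reported them. A probe set is a group of short DNA probes that together read out one transcript. Of these 14 probe sets, 13 had signals high enough to be tested, at least 1 for each of the 9 genes. The other, a second probe set of Klf4, was under the signal floor explained below on all 6 arrays.

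All mice were wild-type C57BL/6J males, 8 to 10 weeks old, and each array carried liver RNA of 1 mouse, with 3 mice in each group. In bile duct ligation (BDL) mice the common duct was tied in several places and cut between the ties, which stops the outflow of bile, and the liver was taken 1 day later. Sham mice had the same opening of the abdomen without ligation, also 1 day earlier. Surgery under methoxyflurane anaesthesia was therefore common to both groups, and no unoperated liver was analysed here. Mice are named here by their labelled numbers, which are 1, 12 and 3 for BDL and 1, 2 and 3 for sham.

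Kruppel-like factors are transcription factors that bind GC-rich and CACCC elements in gene promoters through zinc fingers at their carboxyl end. Their amino-terminal parts differ, so that some members mainly activate genes and others recruit corepressors such as CtBP or SIN3. Many of them are induced within hours by growth signals, blood flow, hormones or injury, and in liver they are known from hepatocytes, sinusoidal endothelium, stellate cells and blood cells.

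The arrays were already scaled, with trimmed mean signals of 1499 to 1500. Sham mouse 1 had raised low signals, with 12.5% of its probe sets at or under the floor of 152.7, against 24.5% to 31.3% on the other arrays. This floor is the 25th percentile of all values, and lower signals were set to it before log2 was taken. Albumin (Alb), a defining hepatocyte product, lay between 147870 and 199675 in BDL livers and between 125084 and 170913 in sham livers. Of 8 hepatocyte genes 7 were tested, 5 had a positive difference and the median was 0.21. Ttr, the thyroxine carrier transthyretin, was lower in all BDL mice (log2 difference -1.25, SE 0.36) and Cyp3a11, a drug-metabolizing enzyme, was higher in all of them (0.56, SE 0.27). The 3' to 5' signal ratio of beta-actin, a sign of RNA integrity, was 1.21 to 1.41 in BDL and 1.52 to 1.54 in sham, with an exact permutation p = 0.1 that is the smallest 3 against 3 arrays can give. The same ratio overlapped between the groups for Gapdh (0.69 to 0.74 in BDL, 0.65 to 0.81 in sham). It also overlapped for pyruvate carboxylase (1.29 to 2.76 in BDL, 2.26 to 4.57 in sham). The part of RNA integrity in the differences below was not tested. Nothing given here depends on sequencing depth, and the number of arrays limits the precision. In whole liver, more cells of a type and more RNA per cell cannot be told apart.

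The comparison asked which Klf transcripts differed between BDL and sham livers. Klf6 signals were higher in each of the 3 BDL mice than in any sham mouse, while the groups overlapped for the other 8 members. With limma, a linear model with moderated variances, 0 of 9 members passed an adjusted p of 0.05 over all 9542 tested probe sets, where 0% of the 6897 genes tested did. The lowest adjusted p of the table was 0.667. At an unadjusted p under 0.05, 1 of 9 members was higher and 0 were lower, against 5.7% of all genes tested, of which 3.42% were higher and 2.28% lower. Counted as probe sets this was 1 of 13, against 5.78% of all that were tested. Groups did not overlap for 1 of 9 members, which was higher in BDL, against 10.6% of all genes tested, of which 6.32% were higher and 4.26% lower. What follows therefore gives sizes and errors, and no member is called changed.

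Log2 differences were positive for 6 members and negative for 3, and they were positive for 49.2% of all genes tested. The median log2 difference over the 9 members was 0.08, against -0.01 over all genes tested. The members ranged from -0.42 for Klf1 to 1.80 for Klf6. Without BDL mouse 12 only 3 of the 9 differences were positive and the median was -0.15, and the array-weighted fit also left 3 positive.

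**Figure D1:**
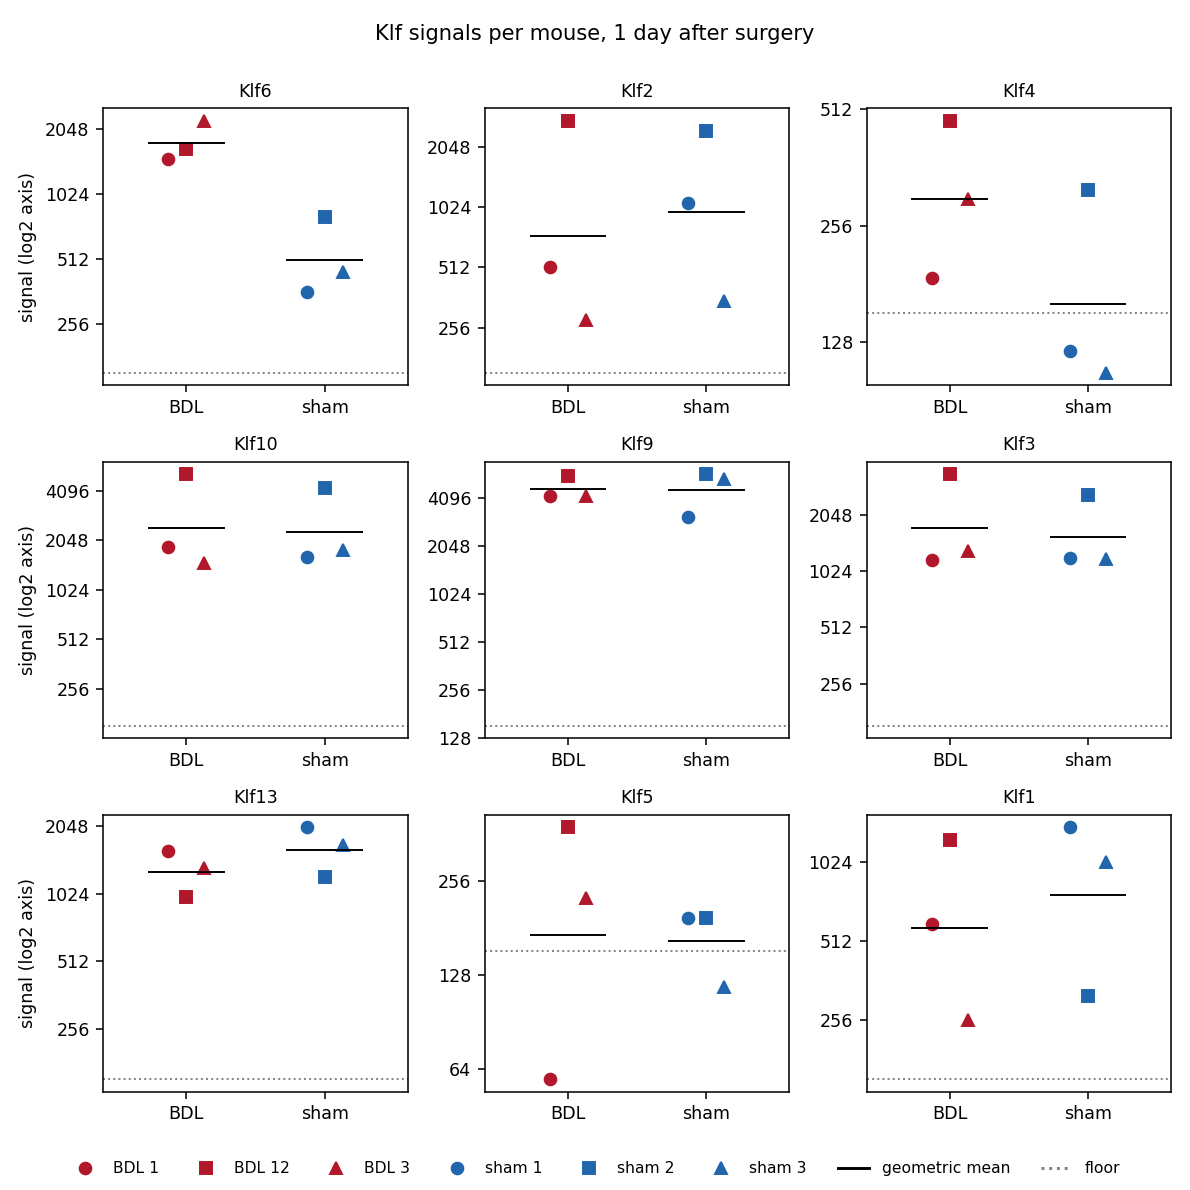
Signals of the probe set that stands for each of 9 Klf genes, on a log2 axis, with 1 point per mouse (BDL left in red, sham right in blue, shapes by mouse number), a line at the geometric mean of the deposited signals and a dotted line at the floor of 152.7. The 3 BDL points of Klf6 lie above its 3 sham points, and BDL mouse 12 and sham mouse 2 (squares) top their groups for Klf2, Klf3, Klf4, Klf9 and Klf10.

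Klf6 is an early response factor of many cell types, first described in injured liver from activated rat stellate cells. Its single probe set, 98083_at, gave signals of 1484.3, 1652.6 and 2238.6 in BDL mice 1, 12 and 3, against 360.5, 800 and 447.3 in sham mice 1, 2 and 3. The lowest BDL signal was well above the highest sham signal. Mean signals were 1792 ± 396 in the BDL group and 536 ± 233 in the sham group (SD, n = 3 each), and geometric means differed 3.49-fold. On the log2 scale the difference was 1.80 (SE 0.37, 95% interval 0.96 to 2.65), larger than the spread within either group. Its limma adjusted p was 0.667 and its unadjusted p 0.000997, which placed it 8th of 9542 probe sets. Leaving out 1 array at a time gave differences of 1.56 to 2.14, all positive. Sums of Kupffer cell and macrophage marker signals (9 of 10 genes tested, Marco too low) were also apart. They were 10962 to 14406 in BDL against 6354 to 10496 in sham. Mean log2 signals of the same 9 genes, each centred on its own mean, overlapped. These lay between -0.07 and 0.48 in BDL and between -0.85 and 0.09 in sham. Of the 9 genes 7 had a positive difference, and the median was 0.85. At an unadjusted p under 0.05 by limma, 2 were higher and 0 lower, where 3.42% of all genes tested were higher. They were Ctss (0.92, SE 0.33) and Tyrobp (1.10, SE 0.47), the latter with 1 sham signal under the floor. The groups did not overlap for either gene, as for 6.32% of all genes tested in that direction. The beta-actin ratios given above were apart too, unlike those of Gapdh and pyruvate carboxylase. The part of these markers and ratios in the Klf6 difference was not tested.

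The Klf6 gene lies on chromosome 13 at 5861489 to 5870393 (GRCm38.p6). Its promoter is shown because Klf6 was the only member whose groups did not overlap. This RefSeq window, chr13:5861239-5861538 on the plus strand, runs from 250 bases before the start to 50 bases after it. Capitals mark any match to the motifs searched on both strands. These motifs are CACCC, the GC box GGGCGG, the TATA element TATAAA and the cyclic AMP response element TGACGTCA. Further ones are TGANTCA (a looser form of the AP-1 site, where N is any base) and TGTTCT (a glucocorticoid receptor half-site).
Klf6: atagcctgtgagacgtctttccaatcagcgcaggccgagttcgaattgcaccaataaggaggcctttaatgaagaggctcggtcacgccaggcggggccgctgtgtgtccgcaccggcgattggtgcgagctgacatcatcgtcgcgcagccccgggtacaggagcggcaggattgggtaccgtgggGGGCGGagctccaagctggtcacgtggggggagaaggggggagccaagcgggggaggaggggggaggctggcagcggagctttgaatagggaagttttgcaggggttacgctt
Within these letters there was 1 match, a GC box 63 bases before the start, a motif held by 35.7% of all 32851 promoter windows. None of the other motifs was in this window, and 63% of its bases were G or C, against a median of 52.7% over all windows.

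Klf4 (chromosome 4, 55527137 to 55532475), which drives epithelial and endothelial differentiation, had the next largest difference. Probe set 99622_at gave 187.8, 477 and 300.7 in BDL mice 1, 12 and 3 and 121.7, 316.5 and 107 in sham mice 1, 2 and 3. Of the 3 sham signals, 2 were under the floor, and sham mouse 2 lay above the lower 2 BDL mice, so the groups overlapped. The log2 difference was 0.62 (SE 0.44, 95% interval -0.38 to 1.63, limma adjusted p = 0.840). It was 0.29 without BDL mouse 12, 0.96 without BDL mouse 1 and 0.97 without sham mouse 2. It also moved with the floor, to 0.90 with a floor at the 10th percentile and 0.18 at the 40th, and was 0.20 with array weights. The untested probe set 161185_i_at read 2.6 to 13.5 in BDL and 6.1 to 95.5 in sham, too low for a fold.

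Klf2 (chromosome 8, 72319062 to 72321654), the factor of flow-exposed endothelium and of resting T cells, varied widely between mice of each group. Its probe set 96109_at read 513.8, 2762.8 and 280.2 in BDL mice 1, 12 and 3, against 1072.1, 2447.2 and 349.3 in sham mice 1, 2 and 3. The highest mouse of each group stood several-fold above its lowest, and over the 6 arrays the signals spanned 9.86-fold, the widest span among the 13 tested probe sets. The log2 difference of -0.40 (SE 0.91) had a 95% interval of -2.47 to 1.66 (limma adjusted p = 0.951), so these arrays bound the Klf2 difference only loosely. It was -1.36 without BDL mouse 12 and 0.29 without BDL mouse 3.

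Klf10 (chromosome 15, 38291464 to 38300711), a repressor known as TGF-beta inducible early gene 1, had 2 probe sets made to the same transcript, which are not independent readings. Probe set 99602_at read 1855.5, 5182.1 and 1495.4 in BDL mice 1, 12 and 3 and 1613.8, 4254.6 and 1786.1 in sham mice 1, 2 and 3. Its companion 99603_g_at read 846.5, 2518.8 and 527.3 in BDL and 656.4, 1578.7 and 774.1 in sham. Both had one array far above the others in each group, and the groups overlapped. The log2 differences were 0.08 (SE 0.55, 95% interval -1.17 to 1.32, limma adjusted p = 0.986) and 0.16 (SE 0.59, limma adjusted p = 0.969). Both turned negative without BDL mouse 12, at -0.47 and -0.48.

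Klf3 (chromosome 5, 64803521 to 64832901), a repressor that recruits CtBP, was reported by 2 probe sets whose order of arrays differed. Probe set 100010_at read 1178.2, 3364 and 1314.8 in BDL mice 1, 12 and 3, against 1201.7, 2604 and 1192.8 in sham mice 1, 2 and 3. Probe set 100011_at read 1129.9, 924.1 and 1336.3 in BDL and 1288.5, 1036.7 and 968 in sham. The first was highest on BDL mouse 12 and sham mouse 2, while the second was lowest of its group on BDL mouse 12 and varied little. Neither differed beyond its spread, with log2 differences of 0.16 (SE 0.49, 95% interval -0.95 to 1.27, limma adjusted p = 0.960) and 0.04 (SE 0.29, 95% interval -0.63 to 0.71, limma adjusted p = 0.988). The first was -0.32 without BDL mouse 12.

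Klf9 (chromosome 19, 23141226 to 23168129), which is induced by glucocorticoid and thyroid hormone and binds the GC box, had its stronger signal on probe set 93528_s_at. That probe set read 4261.7, 5669.5 and 4237 in BDL mice 1, 12 and 3, against 3151.9, 5818.8 and 5404.5 in sham mice 1, 2 and 3. The groups overlapped and the log2 difference was 0.02 (SE 0.34, 95% interval -0.75 to 0.78, limma adjusted p = 0.997). Probe set 93527_at read 1115.6, 2216.3 and 952.3 in BDL and 624, 853 and 1549.6 in sham, with a log2 difference of 0.50 (SE 0.45, 95% interval -0.52 to 1.53, limma adjusted p = 0.873). Both were positive, and the order of the sham mice differed between them.

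Klf13 (chromosome 7, 63886351 to 63938915), a factor known from T lymphocytes and heart, had 2 probe sets of opposite sign. Probe set 103369_at read 1579.9, 987.1 and 1336.7 in BDL mice 1, 12 and 3, against 2023.5, 1218.6 and 1692.3 in sham mice 1, 2 and 3. Probe set 160617_at read 677, 372 and 952.4 in BDL and 386.3, 391.9 and 1011.2 in sham. BDL mouse 12 was the lowest BDL mouse on both. The log2 differences were -0.33 (SE 0.33, 95% interval -1.08 to 0.41, limma adjusted p = 0.876) and 0.22 (SE 0.49, 95% interval -0.90 to 1.33, limma adjusted p = 0.951). Between mice of the same number, 103369_at differed by -0.36 for number 1 and -0.34 for number 3, and 160617_at by 0.81 and -0.09. The labels do not say that mice of the same number belong together. Of the 4 members with 2 tested probe sets, Klf3, Klf9 and Klf10 agreed in sign and only Klf13 did not.

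Klf5 (chromosome 14, 99298691 to 99313412), a factor of proliferating epithelium, was near the floor. Its probe set 97937_at read 59.6, 379.6 and 226.1 in BDL mice 1, 12 and 3, against 195.5, 195.5 and 117.2 in sham mice 1, 2 and 3. One mouse of each group was under the floor, and the log2 difference was 0.39 (SE 0.38, 95% interval -0.47 to 1.25, limma adjusted p = 0.873). It was 0.05 without BDL mouse 12 and 0.70 without BDL mouse 1. The difference depended on the floor, and was 0.06 with a floor at the 10th percentile, 0.07 at the 40th and 0.13 with an added constant.

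Klf1 (chromosome 8, 84901982 to 84905291), the erythroid factor that drives globin genes, read 595.4, 1245.5 and 255.8 in BDL mice 1, 12 and 3 on probe set 100452_at. Sham mice 1, 2 and 3 read 1390.3, 316.5 and 1027.5. The groups overlapped widely, with a log2 difference of -0.42 (SE 0.68, 95% interval -1.97 to 1.13, limma adjusted p = 0.928), and it was 0.17 without BDL mouse 3. Of 12 genes around KLF1 and red cells, 7 were tested, 4 had a positive difference, the median was 0.16 and 0 reached an unadjusted p under 0.05 by limma in either direction. Alpha-globin (Hba-a1) read 15626, 15855 and 17762 in BDL mice 1, 12 and 3, against 5902, 18423 and 6473 in sham mice 1, 2 and 3, which is not the order of Klf1. Its log2 difference was 0.88 (SE 0.45), that of the erythropoietin receptor Epor 0.51 (SE 0.52) and that of the transferrin receptor Tfrc 0.47 (SE 0.50), all with overlapping groups.

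**Figure D2:**
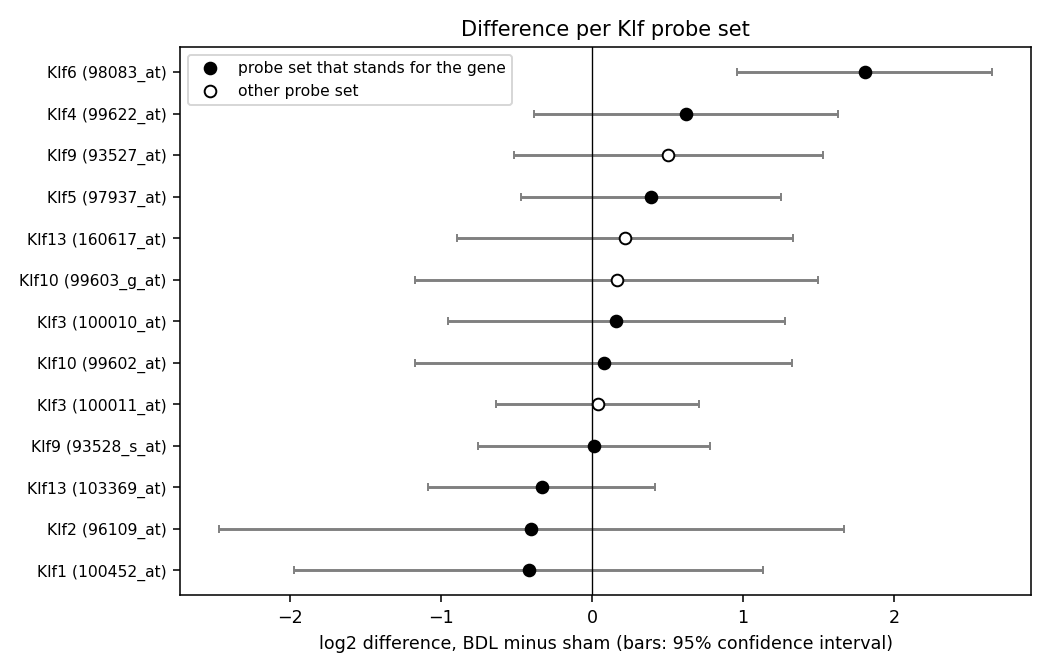
Log2 difference of BDL minus sham for the 13 tested Klf probe sets, with bars for the 95% confidence interval from limma. Filled points stand for the gene and open points are second probe sets. The interval of Klf6, 0.96 to 2.65, lies above 0 and the other 12 intervals include 0.

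For several members the signals differed more between mice of one group than between the group means. BDL mouse 12 was the highest BDL mouse for 7 of 9 members and sham mouse 2 the highest sham mouse for 6 of 9. Both held for Klf2, Klf3, Klf4, Klf9 and Klf10, 5 of 9 members, where 13.6% of all genes tested had this order. For Klf2, Klf3, Klf4 and Klf10 each of these 2 arrays exceeded the next of its group at least 1.5-fold on floored signals, as did 1.73% of all genes tested. These counts take the strongest probe set of each gene. Of the 13 tested Klf probe sets, 6 were highest of their groups on both of these arrays. The second probe sets of Klf3 and Klf9 were not, while that of Klf10 was. BDL mouse 12 stood above the next BDL mouse 5.38-fold for Klf2, 2.79-fold for Klf10, 2.56-fold for Klf3 and 1.59-fold for Klf4. Sham mouse 2 stood above the next sham mouse 2.28-fold for Klf2, 2.38-fold for Klf10 and 2.17-fold for Klf3. Klf6 was different in that BDL mouse 3 was its highest BDL mouse, and Klf13 in that its main probe set was lowest on both of these arrays. This pattern was chosen for description after the signals were seen and has no test.

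Without BDL mouse 12 and sham mouse 2, a setting also chosen after the signals were seen, the log2 difference of Klf6 was 2.18. It was -0.69 for Klf2, -0.03 for Klf10 and 0.64 for Klf4, and 0 probe sets passed the adjusted threshold. The 3' to 5' beta-actin ratio was the highest of its group on both arrays, at 1.41 on BDL mouse 12 against 1.21 and 1.33 on the other BDL arrays, and at 1.54 on sham mouse 2 against 1.53 and 1.52 on the other sham arrays. The ratios of Gapdh and pyruvate carboxylase did not have this order and were highest on BDL mouse 3 and sham mouse 3. For Gapdh they were 0.741 on BDL mouse 3 against 0.736 on BDL mouse 12, and 0.813 on sham mouse 3 against 0.692 on sham mouse 2. For pyruvate carboxylase the same arrays had 2.76 against 2.05 in BDL and 4.57 against 2.67 in sham. The part of array quality in the pattern was not tested.

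**Figure D3:**
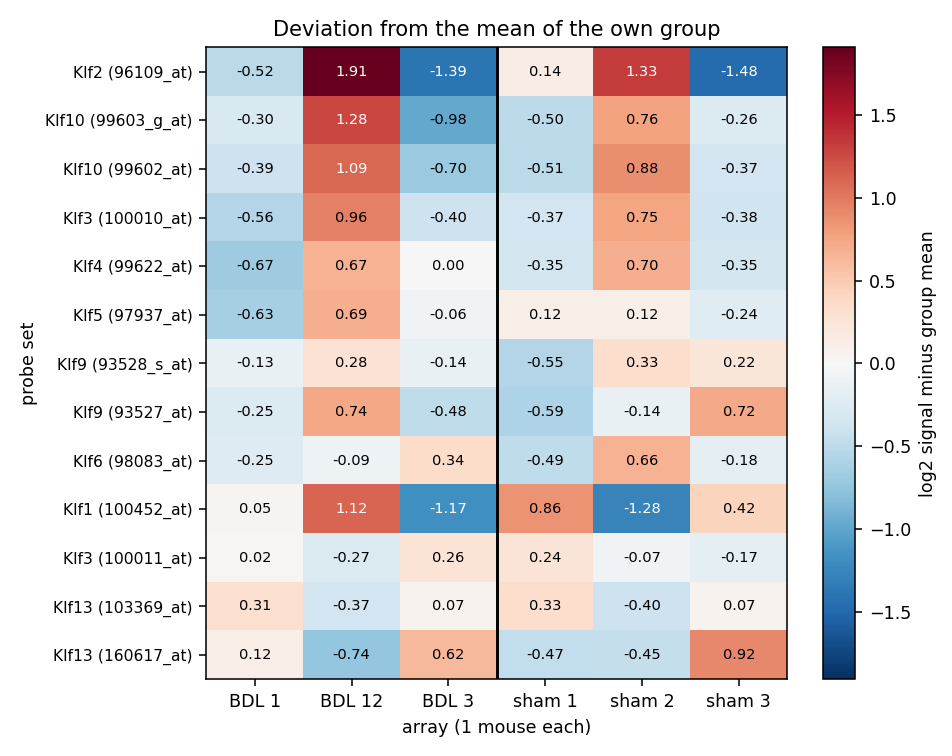
Deviation of each log2 signal from the mean of its own group, for the 13 tested Klf probe sets (rows) and the 6 arrays (columns, BDL left of sham), as numbers and colours. Klf2 deviates by 1.91 on BDL mouse 12 and 1.33 on sham mouse 2, and Klf10, Klf3 (100010_at) and Klf4 also deviate upwards on both.

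Promoter windows of Klf2, Klf3 and Klf4 are shown because BDL mouse 12 and sham mouse 2 each exceeded the next array of their group at least 1.5-fold for these members. Klf10, which met this too, and Klf5 have no window among those used here. They are RefSeq windows of GRCm38.p6 with the same span and the same capitals as for Klf6: chr8:72318812-72319111 on the plus strand for Klf2, chr5:64803271-64803570 on the plus strand for Klf3 and chr4:55532426-55532725 on the minus strand for Klf4.
Klf2: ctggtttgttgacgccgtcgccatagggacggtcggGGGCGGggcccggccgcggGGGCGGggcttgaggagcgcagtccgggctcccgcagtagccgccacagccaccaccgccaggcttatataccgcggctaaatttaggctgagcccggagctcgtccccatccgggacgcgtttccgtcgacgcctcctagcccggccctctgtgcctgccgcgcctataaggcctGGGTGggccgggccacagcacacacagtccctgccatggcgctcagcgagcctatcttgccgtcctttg
Klf3: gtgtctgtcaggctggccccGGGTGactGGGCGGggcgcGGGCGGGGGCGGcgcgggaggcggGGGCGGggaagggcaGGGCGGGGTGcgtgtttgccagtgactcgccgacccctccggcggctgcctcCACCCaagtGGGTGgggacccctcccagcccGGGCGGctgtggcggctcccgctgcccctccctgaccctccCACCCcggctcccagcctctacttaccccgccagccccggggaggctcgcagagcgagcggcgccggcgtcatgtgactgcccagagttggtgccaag
Klf4: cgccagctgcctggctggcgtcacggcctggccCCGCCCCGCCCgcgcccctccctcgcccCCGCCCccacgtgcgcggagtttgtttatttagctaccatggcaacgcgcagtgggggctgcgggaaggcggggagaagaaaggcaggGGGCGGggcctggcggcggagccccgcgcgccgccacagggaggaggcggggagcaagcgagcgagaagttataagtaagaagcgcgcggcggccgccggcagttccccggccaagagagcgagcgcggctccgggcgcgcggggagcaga
All 3 hold GC boxes, 2 in Klf2, 6 in Klf3 and 4 in Klf4, and some of those in Klf3 and Klf4 adjoin or overlap another match. CACCC occurs once in Klf2, at 5 places in Klf3 and not in these letters of Klf4. Over the 7 members with a window, 5 hold a GC box and 5 hold CACCC, which occurs in 57.5% of all windows. TATAAA (13.6% of all windows), TGACGTCA (1.79%) and TGTTCT (19%) were in none of the 7. TGANTCA, found in 7.81% of all windows, was only in that of Klf9, as TGAATCA, where it overlaps the CACCC match. GC content was 69.3% for Klf2, 76.7% for Klf3 and 74.3% for Klf4. These are matches of letters and not sites shown to be bound.

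Genes that act upstream of Klf2 and Klf4 include the MEF2 factors and the kinase cascade of Map2k5 and Mapk7. Of 8 such genes 6 were on the array, 4 were tested, 3 had a positive difference, the median was 0.14 and 0 reached an unadjusted p under 0.05 by limma. Mef2d, a MEF2 factor, read 5398, 10228 and 5602 in BDL mice 1, 12 and 3, against 3822, 11041 and 4115 in sham mice 1, 2 and 3. Its highest arrays were thus those of Klf2, and its log2 difference was 0.28 (SE 0.47). Mef2a differed by 0.50 (SE 0.60) and Mef2b by -0.25 (SE 0.45) and on 93418_g_at by -0.44 (SE 0.49), without that order.

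Endothelial target genes of KLF2 and KLF4 gave 7 tested of 10, of which 6 had a positive difference, with a median of 0.54. On the strongest probe set of the gene, 0 reached an unadjusted p under 0.05 by limma. The list was not split by whether KLF2 and KLF4 raise or lower a gene, so this count does not measure their activity. Thbd, the anticoagulant receptor thrombomodulin, read 580.3, 984.4 and 928.1 in BDL mice 1, 12 and 3 and 213.9, 908.9 and 222.9 in sham mice 1, 2 and 3. It differed by 1.20 (SE 0.56, limma adjusted p = 0.832), with sham mouse 2 inside the BDL range. A weaker Thbd probe set, 104601_at, read 231.1, 327 and 267.7 in BDL against 76.3, 202.4 and 130.4 in sham, groups that did not overlap. Its log2 difference was 0.70 (SE 0.30, limma unadjusted p = 0.0428, adjusted p = 0.832). The floor raised 2 of its sham signals, which narrows the sham spread and can lower a p-value. Vcam1, a leukocyte adhesion receptor, differed by 0.74 (SE 0.44) on its strongest probe set, but by 0.05 on 92559_at and -0.04 on 92560_g_at. Eng, the TGF-beta coreceptor endoglin, differed by 0.54 (SE 0.33). The groups overlapped for both genes. Nos3, the endothelial nitric oxide synthase, was on the array and too low to test. Liver endothelial markers themselves had 9 of 10 genes tested, 8 with a positive difference, and a median of 0.54. At an unadjusted p under 0.05 by limma, 2 were higher and 0 lower, where 3.42% of all genes tested were higher. Fcgr2b differed by 1.29 (SE 0.33), with groups apart, as for 6.32% of all genes tested in that direction, and 1 sham signal under the floor. Cdh5 differed by 1.20 (SE 0.53), with overlapping groups. Summed signals of the 9 markers lay between 8342 and 10482 in BDL and between 4869 and 9712 in sham. The part of these markers in the Klf2, Klf4 and Klf6 signals was not tested.

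Klf6 target genes, 10 tested of 12, had 6 positive differences and a median log2 difference of 0.44, and 1 of them was higher and 0 lower at unadjusted p values under 0.05, where 3.42% of all genes tested were higher. That gene was Tgfbr1, the type I TGF-beta receptor, which read 361.5, 339.5 and 305.6 in BDL mice 1, 12 and 3. In sham mice 1, 2 and 3 it read 112, 58.4 and 112.4, all under the floor. This makes it at least 2.19-fold higher in BDL, and its limma adjusted p of 0.667 comes with a sham spread set to 0 by the floor, which can lower a p-value. Col1a1, a collagen of fibrous matrix, differed by 0.55 (SE 0.36), and by 1.31 (SE 0.59) on the weaker 94305_at, both with overlapping groups, and Eng by the 0.54 given above. Cdkn1a, the cell cycle inhibitor p21, read 1869.2, 4489.2 and 3416 in BDL mice 1, 12 and 3 and 428.5, 4420.1 and 1775.9 in sham mice 1, 2 and 3. Its log2 difference was 1.03 (SE 0.76), and 0.36 (SE 0.74) on 98067_at, with overlapping groups, and it was named after its values were seen.

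TGF-beta signalling genes, the setting in which KLF10 was found, had 7 tested of 10, 6 with a positive difference and a median of 0.38. At an unadjusted p under 0.05, 3 were higher and 0 lower, where 3.42% of all genes tested were higher and 2.28% lower. These 3 were Tgif1, Smad2 and Tgfbr1, which was also counted among the Klf6 targets. Their groups did not overlap, and 6.32% of all genes tested had groups apart with BDL higher. For Tgfbr1 this was fixed in advance, as all its sham signals were under the floor and it was tested through its BDL signals alone. Tgif1, a corepressor of SMAD proteins, read 1996.1, 3614.6 and 3613.9 in BDL mice 1, 12 and 3 and 725.2, 1232.5 and 920.7 in sham mice 1, 2 and 3. Geometric means were 3.16-fold apart, with a log2 difference of 1.66 (SE 0.36, limma adjusted p = 0.667). Smad2, a receptor-activated signal carrier, read 1365.7, 1239.1 and 1336.2 in BDL against 781.7, 801 and 833.8 in sham, a log2 difference of 0.70 (SE 0.26, limma adjusted p = 0.832). Tgfb1 and Tgfbr2 were too low to test.

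Immediate early genes, the class that Klf6 and Klf10 are counted with, had 14 tested of 15, of which 11 had a positive difference and the median was 0.25. At an unadjusted p under 0.05, 3 were higher and 1 was lower, against 3.42% higher and 2.28% lower of all genes tested. The lower one was Fosl2, an AP-1 subunit named after its values were seen (-0.78, SE 0.34). Myc, a growth-promoting factor, read 395.4, 459.1 and 423.7 in BDL mice 1, 12 and 3. In sham mice 1, 2 and 3 it read 103, 149.2 and 107.5, each below the floor, so it was tested through its BDL signals alone. Myc was at least 2.79-fold higher (limma adjusted p = 0.667), with a sham spread set to 0 by the floor, which can lower a p-value. Ier3, a stress-induced early gene, read 584.8, 5135.2 and 1961 in BDL and 325.9, 1062.6 and 150.7 in sham, a log2 difference of 2.27 (SE 0.87, limma adjusted p = 0.832). It was highest on BDL mouse 12 and sham mouse 2, and the groups overlapped. That order held for 3 of the 14 tested genes of the list, against 13.6% of all genes tested. Ier2 differed by 0.92 (SE 0.39, limma adjusted p = 0.832), also with overlapping groups. The median of the list was 0.73 without sham mouse 2 and 0.16 without sham mouse 3.

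Among genes of the glucocorticoid response and the clock, with which Klf9 and Klf10 are known to vary, 12 of 13 were tested, 7 had a positive difference, the median was 0.19 and 0 reached an unadjusted p under 0.05. Nr1d1, the clock repressor REV-ERB alpha, read 1967, 1870.6 and 1873.5 in BDL mice 1, 12 and 3, all below the 2956.5, 2617.8 and 2826.7 of sham mice 1, 2 and 3. Its log2 difference was -0.56 (SE 0.27, limma adjusted p = 0.832). Fkbp5, a glucocorticoid-induced chaperone, differed by 0.60 (SE 0.43) and Per2, a clock repressor, by 0.34 (SE 0.34). The next 2 genes were named after their values were seen, as they too were highest on BDL mouse 12 and sham mouse 2. This order held for 3 of the 12 tested genes of the list, against 13.6% of all genes tested. Dusp1, a phosphatase of MAP kinases, read 3874.4, 10566.6 and 3953.8 in BDL and 4186.6, 10775.7 and 2327 in sham. Sgk1, a kinase induced by glucocorticoid and serum, read 1042.7, 3810.6 and 1511.7 in BDL and 1017.7, 2453.6 and 773 in sham. Fkbp5 was highest on BDL mouse 12 among BDL mice but not on sham mouse 2 among sham mice.

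**Figure D4:**
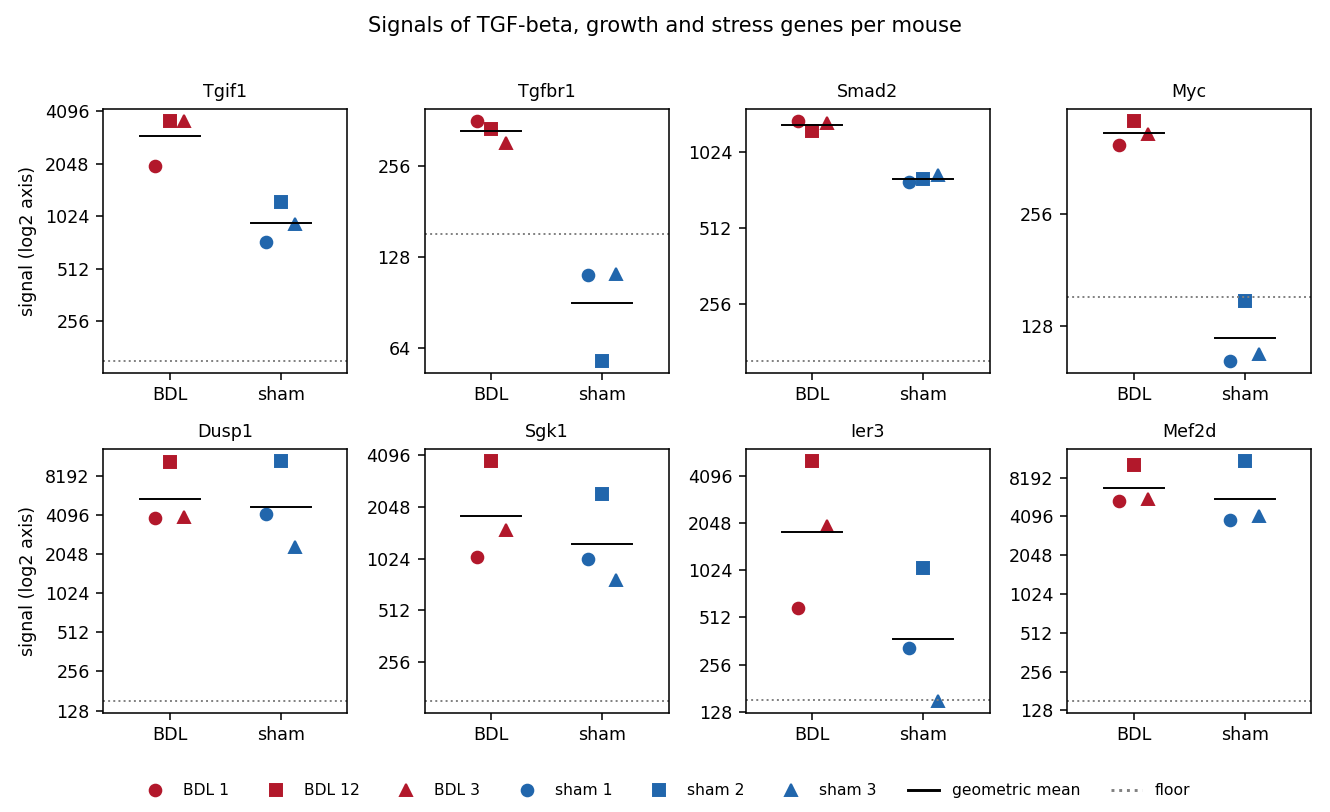
Signals per mouse on a log2 axis for 8 genes related to the Klf factors, with BDL left in red, sham right in blue, shapes by mouse number, lines at the geometric mean of the deposited signals and the floor of 152.7 dotted. The groups are apart for Tgif1, Tgfbr1, Smad2 and Myc in the upper row, and all sham points of Tgfbr1 and Myc lie under the floor. In the lower row the squares, BDL mouse 12 and sham mouse 2, top their groups for Dusp1, Sgk1, Ier3 and Mef2d, an order held by 13.6% of all genes tested. Dusp1 and Sgk1 were named for this order after their values were seen.

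Corepressors and coactivators that Klf proteins bind had 11 tested of 13, with 7 positive, a median of 0.13 and 0 at an unadjusted p under 0.05. Hdac1, a histone deacetylase, read 934.9, 661.6 and 718.4 in BDL mice 1, 12 and 3 and 602.8, 562.6 and 465.2 in sham mice 1, 2 and 3, a log2 difference of 0.50 (SE 0.29, limma adjusted p = 0.832). Wdr5, a histone methylation cofactor, differed by 1.05 (SE 0.52) and Ctbp2, a corepressor, by 0.32 (SE 0.40) and on 160979_at by -0.12 (SE 0.33), all with overlapping groups.

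Of 18 other Sp and Klf family genes, 6 were on the array and 5 were tested, with 3 positive differences and a median of 0.06. At an unadjusted p under 0.05 none was higher and 2 were lower, where 2.28% of all genes tested were lower. Sp4, known from neurons, read 163.2, 134.6 and 166.6 in BDL mice 1, 12 and 3 and 569.4, 373 and 209.1 in sham mice 1, 2 and 3, a log2 difference of -1.14 (SE 0.39, limma adjusted p = 0.832). Its other 2 probe sets were too low to test. Klf17, an early embryonic factor, differed by -1.12 (SE 0.47, limma adjusted p = 0.832) on 162265_r_at with overlapping groups, and its second probe set was below the floor on all 6 arrays. Both were highest on sham mouse 1, whose low signals were raised, and the part of that array in them was not tested. Klf12, a repressor, read 187, 266.8 and 199.1 in BDL and 236.5, 180.6 and 158.9 in sham, a log2 difference of 0.18 (SE 0.31).

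Markers of other cells of the liver were measured beside the Klf genes. Stellate markers, 6 tested of 8 (Pdgfrb too low), summed to 9277 to 11302 in BDL and 7086 to 13653 in sham. Of the 6, 4 had a positive difference and the median was 0.40. At an unadjusted p under 0.05 by limma, 2 were higher and 0 lower, where 3.42% of all genes tested were higher and 2.28% lower. The same threshold and shares apply to the counts of the other cell types below. The 2 were Acta2 (1.14, SE 0.38), with 2 sham signals under the floor, and Reln (1.72, SE 0.71), with overlapping groups. A weaker Reln probe set, 161231_r_at, differed by -0.655 (SE 0.48). Cholangiocyte markers, 3 tested of 7 (Epcam and Krt7 too low), summed to 956 to 1209 in BDL and 552 to 1100 in sham. Of the 3, 2 had a positive difference and the median was 0.32, with 1 higher and 0 lower. The higher one was Anxa3 (1.36), whose sham signals were all under the floor, so it was tested through its BDL signals alone. Neutrophil markers, 7 of 7 tested, summed to 2435 to 6558 in BDL and 2558 to 5189 in sham. Of the 7, 3 had a positive difference and the median was -0.14, with 1 higher and 0 lower. T and B cell markers, 5 tested of 8 (Cd3e and Cd8a too low), summed to 1964 to 2657 in BDL and 2313 to 7133 in sham. Of the 5, 1 had a positive difference and the median was -0.77, with 0 higher and 1 lower. The part of these cells in the Klf signals was not tested.

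By array pattern, the genes most like Klf6 over the 6 arrays were Hspb11, Serpinb9 and Wfs1, with Pearson r of 0.993, 0.985 and 0.982 on log2 signals. Hspb11 read 351.1, 409.7 and 435 in BDL mice 1, 12 and 3 and 154.2, 253.3 and 159.3 in sham mice 1, 2 and 3, and was 2.16-fold higher by geometric means. Wfs1 was 3.17-fold and Serpinb9 1.87-fold higher in BDL, and the groups did not overlap for any of the 3. These genes were picked for their likeness to Klf6 on the same arrays. Their higher BDL signals therefore come from the choice and are no separate result. Nearest to Klf4 were Sos2, Hnrnpdl and Slc6a9, with r of 0.999, 0.990 and 0.982. Sos2 read 303.7, 753.1 and 475.6 in BDL and 247, 535.1 and 247.2 in sham. With 6 arrays many genes reach such values: 107 of 6896 had an r of at least 0.9 with Klf6 and 111 with Klf4.

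**Figure D5:**
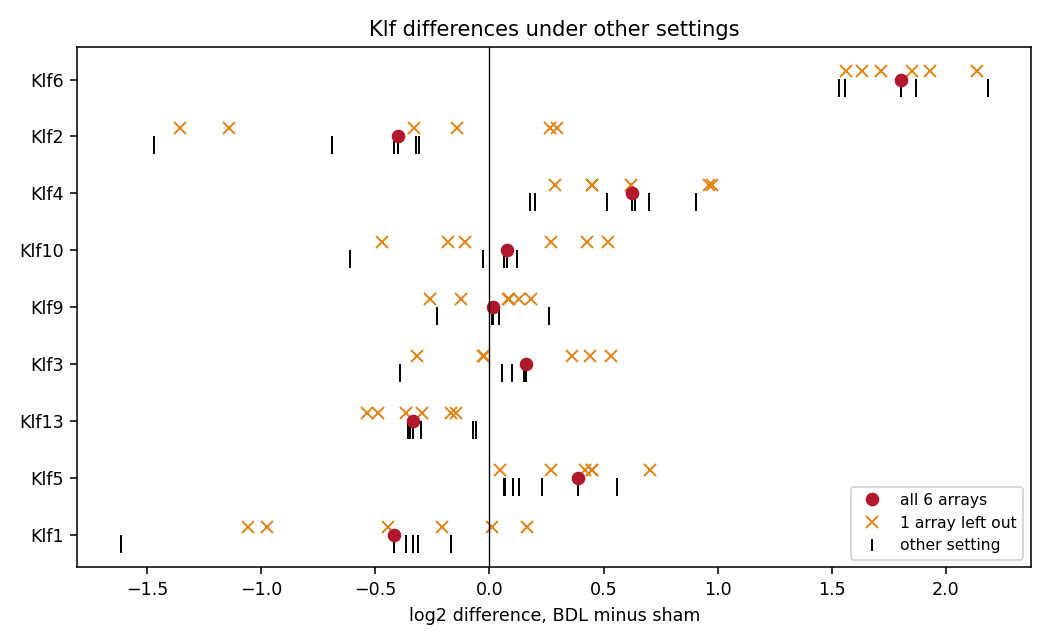
Log2 difference of BDL minus sham for the 9 Klf genes with all 6 arrays (red points), with 1 array left out (orange crosses) and under other processing settings (black ticks). Klf6 stays between 1.53 and 2.18 under all settings, while Klf1, Klf2, Klf3, Klf9 and Klf10 have values on both sides of 0.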

How the data were processed

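Liver RNA of 6 mice, 3 BDL and 3 sham, had been hybridized to Affymetrix U74Av2 arrays with 20 µg cRNA, per the series' design text. The authors deposited a single linear intensity for every probe set of an array, made with MicroArray Suite 4.0 and GeneChip software 3.1, per the series' design text. The sources used here do not give how signals were scaled or background was treated. Each deposited intensity value was kept as scaled, floored at the 25th percentile of all values (152.7) and put on the log2 scale. Of 12488 probe sets, 66 controls were left out and 9542 were tested, those above the floor on at least 3 arrays. BDL minus sham was fitted, with no covariate, in limma 3.58.1 (R 4.3.3), with Benjamini-Hochberg adjustment over all tested probe sets. SE and 95% intervals are limma's moderated values. The fit was tested on simulated data.

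Gene symbols came from the platform annotation and were brought up to date by gene ID with RefSeq GRCm38.p6. Of the probe sets, 10833 had 1 symbol, 396 several and 1193 none. Where a gene had several tested probe sets, the one of highest mean log2 signal stood for it. The Klf members and all lists were chosen with earlier results of these data known. Named from each list were up to 3 tested genes with the smallest unadjusted p and, for Klf6 and Klf4, the 3 genes most correlated. Other names are marked. Alternatives were quantile normalization, floors at the 10th and 40th percentiles, an added constant, no filter or one at the 50th percentile, array weights, robust variances, a trend in the variance, averaged probe sets, a replicate block and leaving out each array. Each array was a separate mouse, and scan dates were not used here.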

Additional observations from a re-analysis of the deposited data

How the results depend on the processing

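The count of probe sets past a limma adjusted p of 0.05 was 0 with all arrays and 0 without any single array. It was 0 under every other setting except no filter, which gave 3 (Anxa3, Myc and Ate1). All sham signals of these 3 were under the floor, which set their sham spread to 0 and can lower a p-value. Probe sets with an unadjusted p under 0.05 numbered 552, but 1176 without sham mouse 3, 308 without BDL mouse 3 and 1023 with array weights. The Klf6 difference of 1.80 was positive in all 18 alternatives, from 1.53 with an added constant to 2.18, with adjusted p from 0.264 to 0.998. Klf4, Klf5 and Klf13 also kept their sign wherever they were tested, and Klf4 and Klf5 were not tested with a filter at the 50th percentile. Signs turned elsewhere, and apart from the arrays left out the cause was not tested. With array weights the difference was -0.61 for Klf10, -0.55 for its probe set 99603_g_at, -0.39 for Klf3 and -0.23 for Klf9. Leaving out 1 array at a time gave -1.06 to 0.17 for Klf1, -1.36 to 0.29 for Klf2, -0.32 to 0.53 for Klf3, -0.26 to 0.18 for Klf9 and -0.47 to 0.52 for Klf10. It gave -0.48 to 0.65 for 99603_g_at, -0.092 to 0.68 for the Klf13 probe set 160617_at and -0.092 to 0.17 for the Klf3 probe set 100011_at.

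Only numbers 1 and 3 occur in both groups, so the replicate block rests on 2 pairs. Deviations from the group means correlated at 0.21 for number 1 and 0.25 for number 3 across tested probe sets, and at 0.29 between BDL mouse 12 and sham mouse 2. The other 6 pairs of a BDL and a sham mouse correlated at -0.21 to -0.04. The labels do not say whether the numbers mark shared batches or whether 12 stands for 2, so these 2 mice were not paired in a fit. With the replicate block the difference was 2.18 for Klf6 (limma adjusted p = 0.610), -0.027 for Klf10, -0.093 for 99603_g_at and -1.61 for Klf1, and 0 probe sets passed. These differences were the same without BDL mouse 12 and sham mouse 2. Medians of the gene lists moved with single arrays too, as from 0.32 to 0.70 for the TGF-beta genes, 0.24 to 0.56 for the Klf6 targets, 0.37 to 0.78 for the endothelial targets and 0.28 to 1.10 for Kupffer and macrophage markers. Signals at the floor limit what can be said of Klf4 and Klf5.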
